A study of Mus musculus with 8 samples.

Results

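The genes described are 10 inhibitory and costimulatory receptors of lymphocytes, chosen by name from the 54232 gene IDs of the table: *Pdcd1*, *Ctla4*, *Lag3*, *Tigit*, *Havcr2*, *Cd96*, *Btla*, *Cd160*, *Cd27* and *Cd28*. All 10 were found in the table, and 9 passed the filter on low counts. Their transcripts were measured by RNA-seq in natural killer (NK) cells and CD8+ T cells, sorted by FACS from the spleens of C57BL/6 mice (C57BL/6N in the study's methods) aged 8-12 weeks with the genotype Tyk2 knockout (Tyk2-/-). The mice were under homeostatic conditions, which means that no stimulus was given. Each cell type had 3 libraries, and each library held the cells of 3 pooled littermate spleens, so the p-values measure the spread between pools and not between single mice. TYK2 is a Janus kinase of interferon and interleukin receptors, and the knockout is carried by the mice of both groups. No wild type library was used, so the values compare the cell types within the knockout and give no effect of TYK2.

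Inhibitory receptors such as PD-1 (encoded by *Pdcd1*), CTLA-4, LAG-3, TIGIT and TIM-3 (*Havcr2*) restrain activated T cells and NK cells when they meet their ligands on neighbouring cells. Costimulatory receptors such as CD28 and CD27 do the opposite and add to the signal of the antigen receptor. Several of these receptors compete for a ligand. CTLA-4 and CD28 share CD80 and CD86, TIGIT and CD96 share the poliovirus receptor (PVR) with the activating receptor CD226, and BTLA and CD160 share the herpesvirus entry mediator (HVEM, *Tnfrsf14*).

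Total counts per library ranged from 20957384 to 26144478 in CD8+ T cells and from 32848432 to 38573550 in NK cells. Counts spread more between replicates in CD8+ T cells (edgeR's common biological coefficient of variation 1.4) than in NK cells (0.847). The defining markers followed the labels. *Cd8b1*, a CD8 coreceptor chain, had 60044 to 80266 counts in CD8+ T cells and 0 in each NK library, and *Ncr1*, an NK receptor, had 137008 to 195219 counts in NK cells and 0 in each CD8+ T library. *Klrb1c*, the NK1.1 antigen used in the sort, had 46536 to 60933 counts in NK cells and 1, 76 and 525 in CD8+ T libraries 1 to 3. *Cd3e* was low, with 711 to 1009 counts in CD8+ T libraries and 227 to 509 in NK libraries. The other CD3 chains were higher. *Cd3d* had 41758 to 59060 counts in CD8+ T libraries and 2978 to 8065 in NK libraries. *Cd3g* had 56552 to 72144 and 4337 to 7598 in the same order. The 6 markers of B cells and plasma cells summed to 940.6 to 9000.0 normalised counts in CD8+ T libraries and to 36.9 to 1593 in NK libraries. *Tyk2* itself had 105, 919 and 554 counts in CD8+ T libraries 1 to 3 and 3864, 4245 and 3207 in NK libraries 1 to 3. The deleted part of the gene is not given in the sources used here, so these reads do not check the genotype.

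The receptors divided by cell type. *Cd160* was higher in NK cells, and *Btla*, *Cd96* and *Cd27* were higher in CD8+ T cells. *Tigit* was found mainly in NK cells without passing the test, and *Cd28* was expressed in both cell types and was not called. *Lag3*, *Ctla4* and *Pdcd1* had low counts that varied from library to library, and *Havcr2* had 0 counts in all 6 libraries. With edgeR's quasi-likelihood test over all 14062 genes that passed the filter (10 or more normalised counts on average) and a Benjamini-Hochberg adjusted p below 0.05, 4 of the 9 receptors tested were called, 1 with its higher level in NK cells and 3 with theirs in CD8+ T cells. Of all genes tested, 11.4% were called, 6.26% toward NK cells and 5.14% toward CD8+ T cells. For 6 of the 9 receptors all libraries of one cell type lay above those of the other, as they did for 41.6% of all genes tested. The median log2 fold change of NK relative to CD8+ T cells was -1.19 for the 9 receptors and 0.10 for all genes tested. In sorted bulk samples, fewer cells that express a gene and less RNA of it per cell cannot be told apart.

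**Figure D1:**
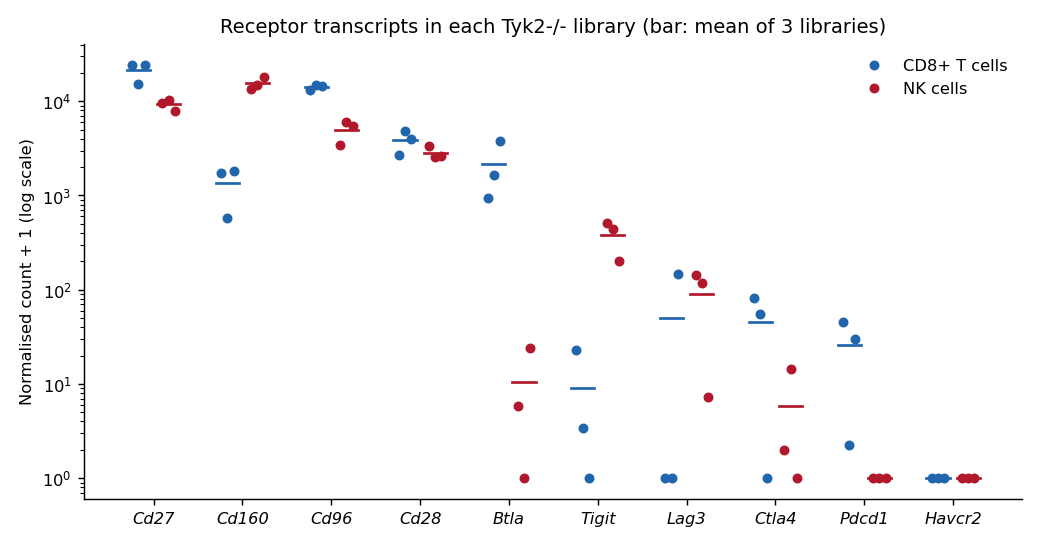
Normalised counts plus 1 (y axis, log scale) of the 10 receptors (x axis) in the 3 CD8+ T and 3 NK cell libraries. Points are libraries and short lines are means. The NK points of Cd160 and Tigit all lie above the CD8+ T points, those of Btla, Cd96, Cd27 and Pdcd1 all lie below, and Havcr2 lies at 0 throughout.

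The HVEM receptors were set in opposite directions. CD160 is an immunoglobulin-like receptor of NK cells and T cells. *Cd160* (ENSMUSG00000038304) spans 96798763 to 96829351 of chromosome 3 on the minus strand of GRCm38 and has 6 exon blocks. It had 14027, 17934 and 20032 counts in NK libraries 1 to 3 and 1410, 468 and 1860 counts in CD8+ T libraries 1 to 3. Every NK library was far above every CD8+ T library, and CD8+ T library 2 was the lowest. The mean normalised count, scaled by TMM factors to a common library size, was 15560.1 ± 2229 (SD, n = 3) in NK cells against 1366 ± 687 (SD, n = 3) in CD8+ T cells. The log2 fold change of NK relative to CD8+ T cells was 3.51 (SE 0.47, edgeR adjusted p = 0.00707), an 11.4-fold difference. This call held with each library left out in turn, with edgeR adjusted p from 0.0017 to 0.0386. The 7 markers of NK cells summed to 3290.1 to 7287 normalised counts in CD8+ T libraries and to 1535267 to 1973099 in NK libraries. In CD8+ T cells 5 of the 7 exceeded 3 counts in at least 1 library. *Prf1* had 2203, 4841 and 2872 counts and *Gzma* 1412, 568 and 0 in CD8+ T libraries 1 to 3. *Fcer1g* had 117, 456 and 2 counts there, *Klre1* 7, 0 and 1, and *Klra8* 0, 1 and 0. *Ncr1* was at 0 in each library, and the counts of *Klrb1c* are given above. The part of NK cell RNA in the *Cd160* counts was not tested.

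The promoters of the called receptors are shown as RefSeq gives them on GRCm38.p6, from 250 bases before to 50 bases after a transcript start, read 5′ to 3′ on the gene's strand. Capitals mark matches, on either strand, to letters bound by factors of interferon signalling or lymphocyte identity. The motifs searched were the interferon-stimulated response element, TTCNNNGAA (gamma-activated site, GAS), GGTGTGA (T-box), TGTGGT (RUNX), TTCAAAG (TCF) and GGAAGT (ETS). Of the 32851 mouse promoters of this length, 3.44%, 8.3%, 3.98%, 16.8%, 5.14% and 23.8% held them, in that order, and no window shown here held the first. *Cd160* has a window at each of 2 starts, and its windows come first because it was the receptor called in NK cells.
Cd160 inner start (chr3:96814472-96814771, minus strand): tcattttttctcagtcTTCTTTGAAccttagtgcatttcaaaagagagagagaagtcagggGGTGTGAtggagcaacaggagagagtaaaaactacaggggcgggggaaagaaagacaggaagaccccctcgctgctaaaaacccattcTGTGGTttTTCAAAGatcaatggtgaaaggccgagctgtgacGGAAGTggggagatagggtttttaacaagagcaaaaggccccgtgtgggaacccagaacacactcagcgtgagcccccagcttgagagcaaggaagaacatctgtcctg
Cd160 outer start (chr3:96829302-96829601, minus strand): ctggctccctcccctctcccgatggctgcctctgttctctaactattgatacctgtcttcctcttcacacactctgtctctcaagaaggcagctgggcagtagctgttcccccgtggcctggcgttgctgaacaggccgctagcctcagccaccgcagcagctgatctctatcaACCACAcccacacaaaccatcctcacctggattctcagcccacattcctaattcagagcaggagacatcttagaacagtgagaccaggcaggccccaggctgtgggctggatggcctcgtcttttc

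The inner window held TTCTTTGAA (GAS) at bases -234 to -226 from the start, the T-box letters at -189 to -183, the RUNX letters at -101 to -96, the TCF letters at -93 to -87 and the ETS letters at -59 to -54. Another TCF match at -232 to -226 lies within the GAS match. The outer window held the RUNX letters only, at -76 to -71. Of the receptors whose windows are not printed, *Tigit* and *Havcr2* held the RUNX letters, *Havcr2* also held the ETS letters at 2 places, and *Pdcd1* and *Ctla4* held none of the motifs. A match describes the letters and is not a bound site. Among genes for factors that bind such letters, the T-box factors *Tbx21* and *Eomes* were higher in NK cells and *Tcf7* was higher in CD8+ T cells, with values given with the other transcription factors.

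BTLA is an inhibitory receptor of B cells and T cells. *Btla* (ENSMUSG00000052013) lies on the plus strand of chromosome 16 from 45224315 to 45257670, with 6 exon blocks. Its counts were 772, 1337 and 3959 in CD8+ T libraries 1 to 3 and 5, 0 and 26 in NK libraries 1 to 3. All CD8+ T libraries were above all NK libraries, and NK library 2 had no read. The means were 2138 ± 1506 (SD, n = 3) normalised counts in CD8+ T cells and 9.41 ± 12.3 (SD, n = 3) in NK cells. The log2 fold change was -7.81 (SE 1.63, edgeR adjusted p = 0.0311). The direction held with each library left out, but the call was lost without CD8+ T library 3 (edgeR adjusted p = 0.0558), NK library 1 (0.136) or NK library 3 (0.055). B cells express *Btla* too, and the part of B cell RNA, whose summed markers are given above, in these counts was not tested. The promoter held the RUNX letters at -178 to -173 and the ETS letters at -16 to -11.
Btla (chr16:45224087-45224386, plus strand): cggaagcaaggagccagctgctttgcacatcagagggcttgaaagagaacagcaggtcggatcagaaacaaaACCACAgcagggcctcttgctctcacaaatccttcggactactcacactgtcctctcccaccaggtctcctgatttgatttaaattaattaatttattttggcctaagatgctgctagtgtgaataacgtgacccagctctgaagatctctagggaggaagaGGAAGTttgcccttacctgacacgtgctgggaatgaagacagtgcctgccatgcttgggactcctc

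Per kilobase of exon, *Cd160* made up 69.2%, 30.1% and 36.65% of the summed level of *Cd160* and *Btla* in CD8+ T libraries 1 to 3, and 99.97%, 100.0% and 99.89% in NK libraries 1 to 3. CD8+ T library 1 thus had more *Cd160* than *Btla*, and the other CD8+ T libraries had more *Btla*. The mean share was 45.3% ± 20.95 (SD, n = 3) in CD8+ T cells and 99.96% ± 0.0544 (SD, n = 3) in NK cells, a difference of 54.6 percentage points (two-sided exact permutation test, p = 0.1, adjusted p = 0.167 over the 5 shares compared). With 3 libraries against 3, an exact permutation test allows no p below 0.1. *Cd160* and *Btla* were each without overlap and in opposite directions, so this share had to separate the cell types. It was chosen after those counts were seen and adds no support of its own. The transcript of the shared ligand, *Tnfrsf14*, had 237, 117 and 154 counts in CD8+ T libraries 1 to 3 and 601, 217 and 247 in NK libraries 1 to 3, and the normalised counts overlapped (log2 fold change 0.76, SE 0.91, edgeR adjusted p = 0.619).

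Of the receptors of PVR, *Cd96* was higher in CD8+ T cells, and *Tigit* and *Cd226* were not called. CD96 is found on T cells and NK cells. *Cd96* (ENSMUSG00000022657) lies on the minus strand of chromosome 16 from 46035657 to 46120251, 778.0 kb from *Btla*, and has 15 exon blocks. It had 10709, 12208 and 15179 counts in CD8+ T libraries 1 to 3 and 3559, 7238 and 6101 in NK libraries 1 to 3. After normalisation the CD8+ T libraries were close to each other and all above the NK libraries, of which library 1 was the lowest. The means were 14254 ± 1008 (SD, n = 3) normalised counts in CD8+ T cells and 5004 ± 1365 (SD, n = 3) in NK cells. The log2 fold change was -1.51 (SE 0.25, edgeR adjusted p = 0.0142), so *Cd96* was 2.85-fold higher in CD8+ T cells. The call was lost without NK library 3 (edgeR adjusted p = 0.069) and held in the other fits with a library left out, the lowest adjusted p being 0.0251. The promoter held TTCAGAGAA (GAS) at -79 to -71 and the RUNX letters at -28 to -23 and at 40 to 45.
Cd96 (chr16:46120199-46120498, minus strand): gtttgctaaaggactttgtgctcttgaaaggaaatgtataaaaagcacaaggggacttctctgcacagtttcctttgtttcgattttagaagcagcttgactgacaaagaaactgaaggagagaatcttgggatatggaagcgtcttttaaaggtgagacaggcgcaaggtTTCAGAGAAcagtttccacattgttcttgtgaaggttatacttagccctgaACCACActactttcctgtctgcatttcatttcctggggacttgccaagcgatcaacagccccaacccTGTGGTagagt

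TIGIT is an inhibitory receptor of activated T cells and NK cells. *Tigit* (ENSMUSG00000071552) lies on the minus strand of chromosome 16 from 43648867 to 43664146, 1.56 Mb from *Btla*, and has 4 exon blocks. Its counts were 521, 523 and 221 in NK libraries 1 to 3 and 18, 2 and 0 in CD8+ T libraries 1 to 3. Each NK library was above each CD8+ T library, and CD8+ T libraries 2 and 3 did not exceed 3 counts, the value up to which a gene was taken as not detectable. The means were 381 ± 162 (SD, n = 3) normalised counts in NK cells against 8.16 ± 12.1 (SD, n = 3) in CD8+ T cells. The log2 fold change of 5.53 (SE 1.92, 95% interval 0.93 to 10.13) did not pass edgeR's test after adjustment (adjusted p = 0.109). It passed with DESeq2 (log2 fold change 5.61, adjusted p = 0.00139) and with edgeR without CD8+ T library 1 (log2 fold change 8.21, adjusted p = 0.0463). With the other libraries left out in turn, edgeR's adjusted p went up to 0.261.

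Among the summed levels per kilobase of *Cd96*, *Tigit* and *Cd226*, *Tigit* took 24.15%, 14.1% and 7.22% in NK libraries 1 to 3 and 0.381%, 0.0341% and 0% in CD8+ T libraries 1 to 3. *Cd96* took 69.4%, 82.35% and 83.9% in NK libraries 1 to 3 and 95.3%, 87.6% and 91.3% in CD8+ T libraries 1 to 3. *Cd96* was thus the most abundant of these transcripts in every library, and neither share overlapped between the cell types. The difference of NK minus CD8+ T cells was 15.0 percentage points for *Tigit* and -12.9 for *Cd96* (two-sided exact permutation test, p = 0.1 each, adjusted p = 0.167). On raw counts, which ignore transcript length, the *Cd96* shares overlapped (difference -3.91 percentage points, exact permutation test, p = 0.5). *Cd226* had 996, 3541 and 2979 counts in CD8+ T libraries 1 to 3 and 679, 635 and 1331 in NK libraries 1 to 3, and its normalised counts did not overlap (log2 fold change -1.82, SE 0.57, edgeR adjusted p = 0.0868). The share of *Cd226* was 6.28% ± 2.695 (SD, n = 3) in NK cells against 8.46% ± 4.03 (SD, n = 3) in CD8+ T cells (two-sided exact permutation test, p = 0.5, adjusted p = 0.5). The shares of *Cd96*, *Tigit* and *Cd226* make up the whole in each library, so their tests depend on each other. The ligand gene *Pvr* had 83, 299 and 87 counts in CD8+ T libraries 1 to 3 and 12, 308 and 116 in NK libraries 1 to 3, and the cell types overlapped (log2 fold change -0.56, SE 1.37, edgeR adjusted p = 0.825).

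**Figure D2:**
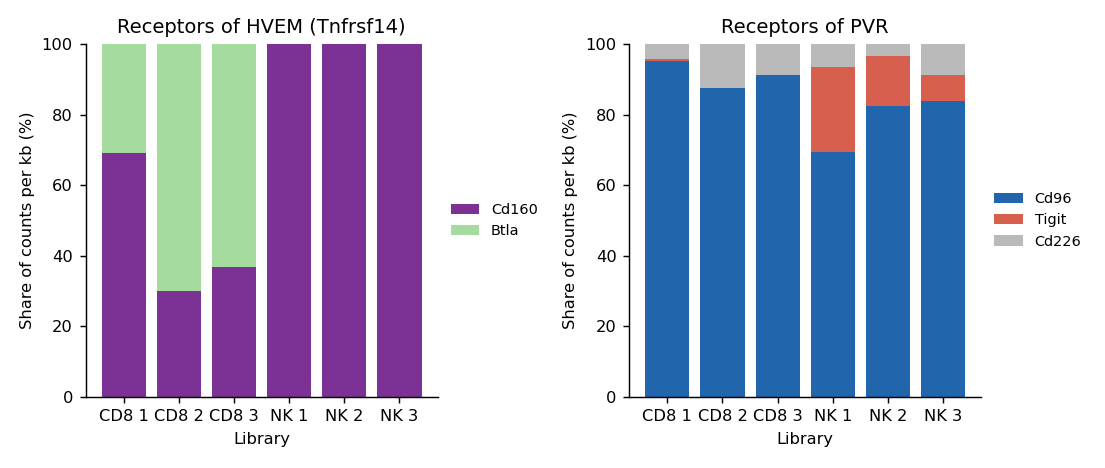
Share of counts per kb of exon (y axis, percent) taken by each receptor in each library (x axis), for the receptors of HVEM on the left and of PVR on the right. Cd160 fills nearly the whole bar in NK cells and 30.1% to 69.2% in CD8+ T cells, and Tigit is visible mainly in NK cells, at 7.22% to 24.15%.

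CD27 is a costimulatory receptor of the tumour necrosis factor receptor family, which also marks stages of NK cell maturation. *Cd27* (ENSMUSG00000030336) lies on the minus strand of chromosome 6 from 125232622 to 125237010, has 6 exon blocks and shares 11 exonic bases with *Mir8113* on the same strand. It had 19979, 12533 and 24766 counts in CD8+ T libraries 1 to 3 and 9948, 12419 and 8807 in NK libraries 1 to 3. After normalisation all CD8+ T libraries were above all NK libraries, with CD8+ T library 2 nearest to them. The means were 21260.0 ± 5106 (SD, n = 3) normalised counts in CD8+ T cells and 9333 ± 1278 (SD, n = 3) in NK cells. The log2 fold change was -1.19 (SE 0.235, edgeR adjusted p = 0.0263), a level 2.28-fold higher in CD8+ T cells. The call was lost when NK library 1, 2 or 3 was left out (edgeR adjusted p = 0.113, 0.0919 and 0.122). It was kept without each CD8+ T library, and the lowest adjusted p among these fits was 0.0084. *Cd70*, the gene of its ligand, had 0 counts in all 6 libraries. The promoter held the TCF letters at 15 to 21, after the start.
Cd27 (chr6:125236978-125237277, minus strand): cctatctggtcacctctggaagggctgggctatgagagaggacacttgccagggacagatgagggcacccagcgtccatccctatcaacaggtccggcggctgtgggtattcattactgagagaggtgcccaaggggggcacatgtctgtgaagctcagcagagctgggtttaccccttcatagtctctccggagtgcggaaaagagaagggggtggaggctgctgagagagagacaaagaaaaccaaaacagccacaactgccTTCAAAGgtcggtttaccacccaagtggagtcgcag

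CD28, the classical costimulatory receptor of T cells, was expressed in both cell types. *Cd28* (ENSMUSG00000026012) lies on the plus strand of chromosome 1 from 60716800 to 60773359, with 4 exon blocks. It had 2221, 3916 and 4148 counts in CD8+ T libraries 1 to 3 and 3469, 3084 and 2884 in NK libraries 1 to 3. The cell types overlapped, since CD8+ T library 1 had fewer normalised counts (2717) than NK library 1 (3376). The means were 3845 ± 1053 (SD, n = 3) normalised counts in CD8+ T cells and 2851 ± 455 (SD, n = 3) in NK cells. The log2 fold change was -0.43 (SE 0.29, edgeR adjusted p = 0.359), and its 95% interval ran from -1.13 to 0.27. In NK cells the T cell marker *Trac* stood at 308 to 441 counts against 24276 to 42514 in CD8+ T cells, and *Cd8b1* at 0. The 7 markers of CD8+ T cells summed to 14529 to 19627 normalised counts in NK cells. In CD8+ T cells they summed to 307709 to 354646. Most of the sum in NK cells came from *Trbc2*, *Cd3d* and *Cd3g* (mean normalised counts 6342, 5103 and 5004). The part of T cell RNA in the *Cd28* counts was not tested.

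CTLA-4, the inhibitory counterpart of CD28, was near the limit of detection. *Ctla4* (ENSMUSG00000026011) lies on the plus strand of chromosome 1 from 60887000 to 60915832, 113.6 kb downstream of *Cd28*, with 4 exon blocks. It had 66, 44 and 0 counts in CD8+ T libraries 1 to 3 and 1, 16 and 0 in NK libraries 1 to 3. A library of each cell type was at 0, and the cell types overlapped (log2 fold change -3.19, SE 2.51, edgeR adjusted p = 0.433). Per kilobase, *Ctla4* took 6.26%, 2.46% and 0% of the summed level with *Cd28* in CD8+ T libraries 1 to 3 and 0.0648%, 1.15% and 0% in NK libraries 1 to 3, so *Cd28* made up nearly all of it in each library. The difference of NK minus CD8+ T cells in this share was -2.50 percentage points (two-sided exact permutation test, p = 0.4, adjusted p = 0.5). The ligand gene *Cd86* had 323, 536 and 986 counts in CD8+ T libraries 1 to 3 and 0, 5 and 158 in NK libraries 1 to 3 without overlap (log2 fold change -3.78, SE 2.02, edgeR adjusted p = 0.245). *Cd80*, the other ligand gene, had 0, 0 and 3 counts in CD8+ T libraries 1 to 3 and 29, 47 and 3 in NK libraries 1 to 3 (edgeR adjusted p = 0.207).

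The remaining inhibitory receptors are known best from activated or chronically stimulated T cells, and their counts were low in these unstimulated cells. *Lag3* (ENSMUSG00000030124, minus strand of chromosome 6 from 124904361 to 124911705) encodes a receptor for MHC class II. It had 146, 140 and 7 counts in NK libraries 1 to 3 and 0, 0 and 151 in CD8+ T libraries 1 to 3. All CD8+ T reads came from library 3 and NK library 3 was nearly without reads, so the cell types overlapped (log2 fold change 0.86, SE 2.53, edgeR adjusted p = 0.859). Without CD8+ T library 3 the remaining CD8+ T libraries were both at 0, and edgeR's adjusted p was 0.103.

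PD-1 restrains T cells after activation. *Pdcd1* (ENSMUSG00000026285, minus strand of chromosome 1 from 94038305 to 94052553) had 36, 1 and 30 counts in CD8+ T libraries 1 to 3 and 0 in each NK library. CD8+ T library 2 was itself at the limit of detection. Against the floor of 3 counts per NK library, the CD8+ T mean was at least 9.14-fold higher, and edgeR's test did not call it (adjusted p = 0.11). TIM-3 was not detectable as transcript in either cell type. *Havcr2* (ENSMUSG00000020399, plus strand of chromosome 11 from 46454935 to 46481255) had 0 counts in all 6 libraries and could not be tested. A floor of 3 counts corresponded to 2.51 to 3.68 normalised counts in these libraries, and it covers counting error only.

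**Figure D3:**
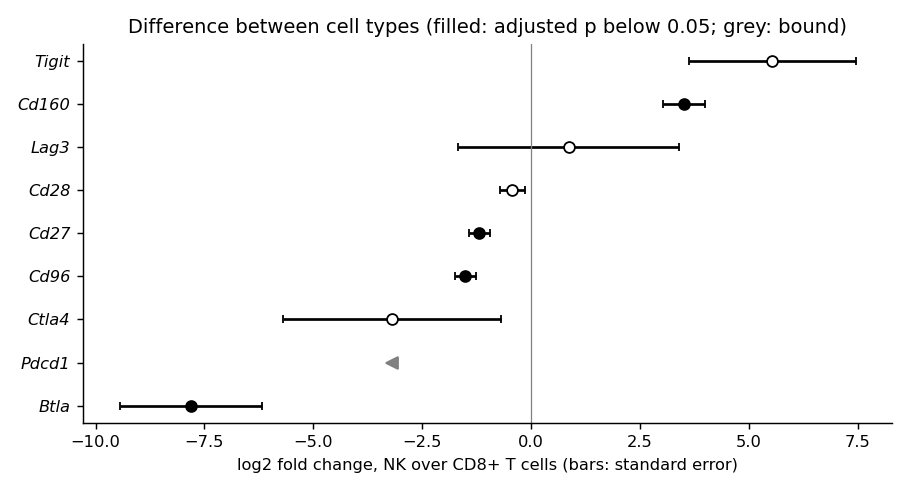
log2 fold change of NK relative to CD8+ T cells (x axis) for the 9 receptors tested (y axis), with standard errors as bars. Filled points have an edgeR adjusted p below 0.05 (Cd160, Cd27, Cd96 and Btla), open points do not, and the grey triangle marks the bound of Pdcd1, whose NK libraries were all at 0.

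Levels were compared between receptors per kilobase of exon. In NK cells *Cd27* (5987 ± 819.9) and *Cd160* (5889 ± 844) had the highest means, with overlapping libraries (normalised counts per kilobase, SD, n = 3). *Cd96* followed at 2291 ± 625, *Cd28* at 656 ± 105 and *Tigit* at 415 ± 176, and none of these steps overlapped. *Lag3*, at 44.25 ± 36.1, lay below *Tigit* without overlap, and *Lag3*, *Btla* and *Ctla4* overlapped each with the next. In CD8+ T cells *Cd27* led with 13637 ± 3275, followed without overlap by *Cd96* with 6527 ± 461. *Cd28* (884 ± 242), *Btla* (657 ± 463) and *Cd160* (517 ± 260.1) came next and overlapped with their neighbours among these genes. *Lag3*, *Ctla4*, *Pdcd1* and *Tigit* had means from 24.3 down to 8.88 and overlapped each with the next. *Cd27* thus led in both cell types, and *Cd160* came next to it in NK cells but was only the fifth in CD8+ T cells. Scaling by the total count left all 10 receptors at the same rank in both cell types, but this check could hardly have changed the order. It scales all genes of a library alike, and TMM factors were close within CD8+ T cells (1.117 to 1.143) and NK cells (0.8591 to 0.9044). *Pdcd1* and *Havcr2* were both at 0 in NK cells and have no order there.

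**Figure D4:**
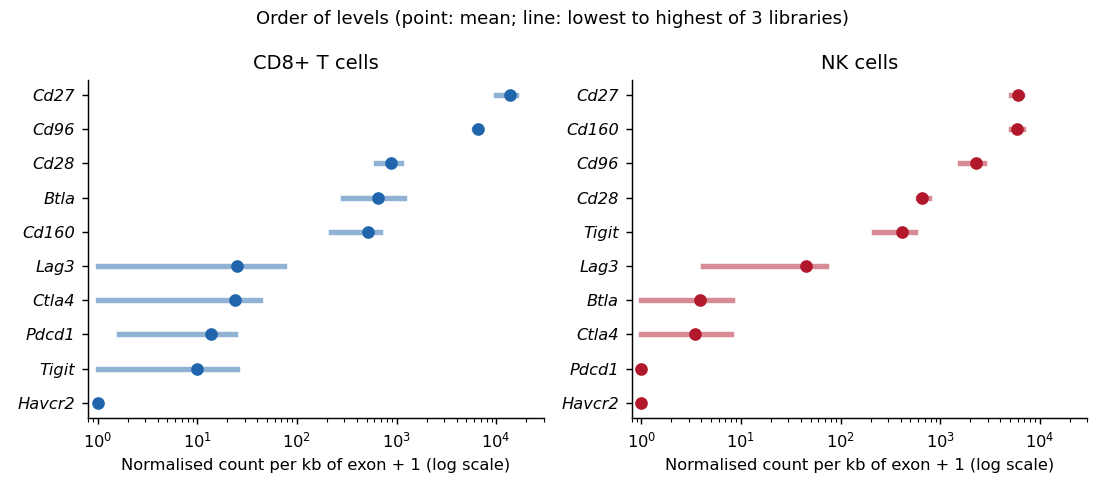
Normalised count per kb of exon plus 1 (x axis, log scale) of the receptors, in the order of their means (y axis), in CD8+ T cells on the left and NK cells on the right. Points are means and lines run from the lowest to the highest of 3 libraries. Cd160 lies next to Cd27 in NK cells and below Btla in CD8+ T cells, and several of the low receptors have lines that reach 0.

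The receptors also differed in how far replicates spread. In CD8+ T cells the coefficient of variation of *Cd96* was 7.07%, against a median of 24.5% (quartiles 16.1% and 33.1%) for the 429 genes with a mean of at least 10000 normalised counts. *Btla* varied by 70.5% in the same libraries, against a median of 40.4% (quartiles 26.2% and 59.7%) for the 3986 genes with means from 1000 to 10000. *Cd160* varied by 50.3% in CD8+ T cells, within the quartiles of these 3986 genes, to which it belongs. In NK cells it varied by 14.3%, against a median of 9.45% (quartiles 6.16% and 13.8%) for the 500 genes with a mean of at least 10000. *Cd96* was thus among the steadier and *Btla* among the more variable genes of their level in CD8+ T cells. The steadiness of *Cd96* was not seen in NK cells. There it varied by 27.3%, against a median of 17.6% (quartiles 10.8% and 26.7%) for the 3667 genes with means from 1000 to 10000. The highest CD8+ T library exceeded the lowest 4.06-fold for *Btla*, 3.14-fold for *Cd160* and 1.14-fold for *Cd96*. In NK cells this ratio was 22.6 for *Lag3*, 2.55 for *Tigit* and 1.31 for *Cd28*.

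Ligands and counter-receptors of the 10 receptors gave no call with edgeR's quasi-likelihood test. Of 20 listed, 14 were tested and 0 were called, while 1 had an unadjusted p below 0.05 and DESeq2 called 2 (*H2-Ab1* and *Hmgb1*). Their median log2 fold change was -0.39. *Cd70*, *Fgl1*, *Clec4g*, *Nectin1* and *Nectin2* were at 0 in all 6 libraries. The genes of the PD-1 ligands spread widely between libraries. *Cd274* (PD-L1) had 1, 1 and 1093 counts in CD8+ T libraries 1 to 3 and 133, 125 and 226 in NK libraries 1 to 3, so that CD8+ T library 3 was above all others. *Pdcd1lg2* (PD-L2) had 0, 23 and 0 counts in CD8+ T libraries 1 to 3 and 131, 576 and 190 in NK libraries 1 to 3, and its libraries did not overlap (log2 fold change 4.78, SE 2.35, edgeR adjusted p = 0.218). The MHC class II genes *H2-Aa* and *H2-Ab1*, which B cells express strongly, had their highest counts (3342 and 11353) in CD8+ T library 1. The part of B cell RNA in these counts was not tested. *Lgals9*, the gene of a TIM-3 ligand, had 9596, 5585 and 14812 counts in CD8+ T libraries 1 to 3 and 12617, 20318 and 18489 in NK libraries 1 to 3, so its transcript was abundant where *Havcr2* was at 0 (log2 fold change 0.48, SE 0.30, edgeR adjusted p = 0.32).

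Of 12 other inhibitory receptors, 10 were tested and 4 called (40.0%), 2 in each direction, with a median log2 fold change of 0.05. For each of these 4 genes, a cell type was at or under the floor in all its libraries. *Cd244a* (2B4, a receptor of NK cells) was at least 2633-fold higher in NK cells (8997 ± 930.5 normalised counts, SD, n = 3, edgeR adjusted p = 2.73e-04). *Pvrig*, which encodes a further receptor of the PVR family, was at least 794-fold higher in NK cells (edgeR adjusted p = 0.00173). *Cd6* and *Cd5*, scavenger-type receptors that tune T cell receptor signalling, were at least 3388-fold and 608-fold higher in CD8+ T cells (edgeR adjusted p = 7.64e-04 and 0.00501).

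Of 16 other costimulatory receptors, 15 were tested and 4 called (26.7%), again 2 in each direction (median log2 fold change 0.56). *Slamf7* was at least 2514-fold higher in NK cells (edgeR adjusted p = 3.29e-04). Its family member *Slamf6* was 3.92-fold higher in CD8+ T cells, with 10320.5 ± 3082 against 2629 ± 634.5 normalised counts (SD, n = 3, edgeR adjusted p = 0.0133). *Tnfrsf18* (GITR) was 2.92-fold higher in NK cells (edgeR adjusted p = 0.00811). *Dpp4* (CD26) was higher in CD8+ T cells, with 4084 ± 837 against 12.7 ± 9.56 normalised counts (SD, n = 3, edgeR adjusted p = 0.00391).

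Of 24 signalling proteins downstream of such receptors, all were tested and 5 called (20.8%), with a median log2 fold change of 0.29. *Inpp5d*, encoding the lipid phosphatase SHIP-1, was 10.5-fold higher in NK cells (11395 ± 412 against 1090.2 ± 417 normalised counts, SD, n = 3, edgeR adjusted p = 0.00184). *Sh2d1b1*, the SLAM family adaptor EAT-2, was at least 475-fold higher in NK cells (edgeR adjusted p = 0.0031). The T cell receptor pathway genes *Dgka* and *Prkcq* were 5.80-fold and 2.17-fold higher in CD8+ T cells (edgeR adjusted p = 0.0012 and 0.0186).

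Of 16 transcription factors tied to the expression of these receptors, 15 were tested and 7 called (46.7%), 5 of them higher in NK cells, with a median log2 fold change of 2.42. *Tbx21* (T-bet) was abundant in NK cells, with 33864 ± 4710.1 normalised counts (SD, n = 3), against 4.497 ± 7.79 (SD, n = 3) in CD8+ T cells (edgeR adjusted p = 0.00216). *Eomes*, the related T-box factor, was 10.6-fold higher in NK cells (edgeR adjusted p = 0.00806). *Prdm1* (BLIMP-1) was at least 976-fold higher and *Id2* 29.8-fold higher in NK cells (edgeR adjusted p = 9.23e-04 and 2.25e-04). *Tcf7* (TCF-1) and *Id3*, factors of naive and memory T cells, were 9.17-fold and 10.8-fold higher in CD8+ T cells (edgeR adjusted p = 7.38e-04 and 0.0187).

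**Figure D5:**
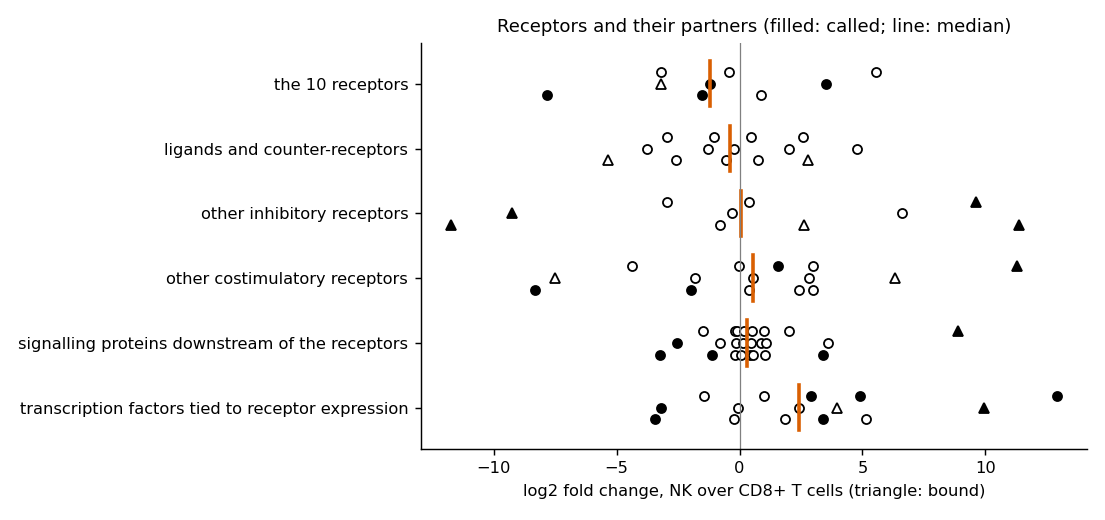
log2 fold change of NK relative to CD8+ T cells (x axis) for the 9 receptors tested and for the tested genes of the other lists (y axis). Filled symbols are called, triangles are bounds for genes at the floor in a whole cell type, and orange lines are medians. No ligand is filled, and the transcription factors have the highest of these medians, 2.42.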

How the data were processed

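RNA of NK cells and CD8+ T cells, FACS-purified from pools of 3 Tyk2-/- spleens, was sequenced as single-end reads after Smart-seq2 amplification. The authors used Trimmomatic 0.32 for trimming and STAR 2.7.1 for alignment to mm10, counted uniquely aligned reads in exons with summarizeOverlaps in R 3.2.3 on a GENCODE Basic annotation of GRCm38, and deposited these counts per gene without normalisation. Reads aligning to several places were left out, which can lower the counts of genes with near-identical copies, and the use of strand is not given in the sources used here. Of the 104 columns of values, 6 were used and 98 were not. The latter include 3 columns named for WT CD8+ T cells, against 2 such samples, which could not be tied to samples, so the comparison with WT was not run. The 6 columns carry running numbers that match no sample number, and libraries 1 to 3 are named by them.

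Positions, names and exon lengths came from another GENCODE release (M21) of GRCm38, to which 54079 of the 54232 gene IDs matched and 153 did not, and promoters from RefSeq, in which 8 of the 10 receptors matched (not *Lag3* and *Cd28*). Counts were analysed with edgeR 4.0.16 in R 4.3.3 (TMM factors over the 6 libraries, a filter of 10 or more normalised counts on average, quasi-likelihood test with robust estimation, Benjamini-Hochberg adjustment, threshold 0.05). Normalised counts are given for an effective library size of 28906351, the mean of the 6 libraries. A fold against a group with 3 counts or fewer in each library was taken against that floor, as a mean over the group. Intervals, floors and p-values rest on amplified reads counted without molecular identifiers. The tests were tested on simulated data, in which only a small part of the genes was set to change. At the dispersions estimated from these libraries, edgeR missed most of the changed genes and DESeq2 called more unchanged than changed genes. The balance of DESeq2's calls depends on that small part, so it does not give the share of false calls in these data. At a low dispersion both recovered nearly all changed genes. Shares of receptors were compared with exact permutation tests over all divisions of the 6 libraries into groups of 3. Their Benjamini-Hochberg adjustment was made with scipy 1.17.1. No pair of replicate libraries agreed within sampling noise. Alternatives were RLE factors, DESeq2 1.42.0, no filter, leaving out each library, and, chosen after seeing the data, total-count scaling. The whole comparison of receptor shares, per kilobase and on raw counts, was also chosen after seeing the data. The receptors and gene lists were chosen with earlier results of these data known. The genes named are the 10 receptors, their ligands, up to 4 called genes per direction in each list, *Tyk2*, *Cd8b1*, *Cd3e*, *Ncr1* and *Klrb1c*, and the 3 genes most like the receptor with the largest change in each direction among those called. *Trac*, *Trbc2*, *Trdc*, *Tcrg-C1*, *Sox13*, *Cd3d*, *Cd3g*, *Prf1*, *Gzma*, *Fcer1g*, *Klre1*, *Klra8*, *Cd4*, *Foxp3*, *Cd226* and *Mir8113* were named after their values were seen. Values of some genes are left out here.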

Additional observations from a re-analysis of the deposited data

How the results depend on the processing

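The tested receptors other than *Pdcd1*, for which a bound was given, kept their direction in every alternative run, and the 4 calls were kept with RLE factors, without the filter and with total-count scaling. Total-count scaling moved the median log2 fold change of all genes by -0.38, to -0.273. The share of calls higher in NK cells was 54.9% with TMM and 40.3% with total-count scaling, which called 1111 genes higher in CD8+ T cells (723 with TMM) and 1 ligand. DESeq2 called 3729 genes against 1603 with edgeR (2132 higher in NK and 1597 higher in CD8+ T cells, 3537 against 1570 when an absolute log2 fold change of 1 or more was required), 2 receptors higher in NK cells, 2 ligands and 8 other costimulatory receptors. With each library left out in turn, 476 to 1944 genes were called (236 to 1205 higher in NK and 240 to 739 higher in CD8+ T cells, 475 to 1874 with that fold required), with the 3 lowest totals (482, 485 and 476) when an NK library was missing. These fits called 1 to 5 receptors (1 to 2 higher in NK and 0 to 3 higher in CD8+ T cells), 0 to 2 ligands and 2 to 5 other costimulatory receptors. Without NK library 3, *Cd160* alone was called among the receptors. Over the same fits the differences in share ranged from 47.0 to 66.6 percentage points for *Cd160*, from 10.5 to 19.0 for *Tigit*, from -15.5 to -8.29 for *Cd96*, from -4.25 to -0.227 for *Cd226* and from -3.96 to -0.826 for *Ctla4*, and on raw counts they were -3.91 for *Cd96* and 6.63 for *Tigit*. The level of *Cd96* per kilobase in CD8+ T cells was 7522 with total-count scaling against 6527. The cause of these changes was not tested. No paired analysis was possible because the running numbers of the libraries match no sample, and the comparison with WT, with its blocked and DESeq2 fits, was not run. Counts of 3 or fewer per library limit what can be said of *Pdcd1*, *Ctla4*, *Lag3* and *Havcr2*.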

Other observations

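The tested genes whose log2 normalised counts followed *Cd160* most closely over the 6 libraries, out of 14061 compared, were *Txk* (Pearson r 0.9992), *Gm8100* (0.9984) and *Gm9164* (0.9983). *Txk*, which encodes a Tec family kinase, had 12823, 15098 and 14516 counts in NK libraries 1 to 3 and 7428, 6358 and 9330 counts in CD8+ T libraries 1 to 3, so its difference between cell types was far smaller than that of *Cd160*. *Gm8100* and *Gm9164* had 32 counts or fewer in every library. The genes most like *Btla* were *Gabpb1* (0.9919), *Rgs10* (0.9914) and *Traj18* (0.9906). *Rgs10*, a regulator of G protein signalling, had 4338, 7685 and 7710 counts in CD8+ T libraries 1 to 3 and 601, 318 and 1302 counts in NK libraries 1 to 3. The 6 points fall into the 2 cell types and share their libraries' depth, so these values describe the libraries and carry no test.

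Markers of other cell types were low beside those of the sorted cells but not absent. *Trdc*, the constant region of the T cell receptor delta chain, had 1350, 3027 and 2619 counts in NK libraries 1 to 3 and 0, 2 and 1 in CD8+ T libraries 1 to 3. Of the other gamma delta T cell markers listed, *Tcrg-C1* had 1, 0 and 36 counts in NK libraries 1 to 3. It had 0 in each CD8+ T library, and *Sox13* had 0 counts in all 6 libraries. Summed normalised counts were 250 to 859 in NK cells and 2.45 to 142 in CD8+ T cells for 7 markers of macrophages, monocytes and neutrophils. For 5 dendritic cell markers they were 255 to 752 and 0 to 438. For *Cd4* and *Foxp3* they were 10.8 to 36.0 and 0 to 7.36, and for 5 erythroid and platelet markers 1.80 to 165 and 1.94 to 42.8. Their part in the receptor counts was not tested.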
